A study of Homo sapiens with 66 samples.

Results

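The sites described here are adenosines that were edited in at most 2% of reads in CTRL cells harvested on day 4. In CTRL cells treated with IFN-α and harvested on the same day, they were edited in at least 15% of reads. Editing was the number of reads with G at the site divided by all counted reads, summed over the 3 libraries of a group, and at least 30 reads were required in both groups. The rule chose 772 sites. They made up 0.586% of the 131683 sites that had the reads and were low in CTRL, out of 197852 sites with the reads and 475962 sites in the table of the first RNA-seq study. CTRL and IFN-α values on day 4 thus chose the sites, and they are given as a description without a test.

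All cells were THP-1, an established human monocytic line, and all carried a Cas9 transgene. The first study used a STING-deficient clone with 16 groups of 3 libraries of whole-cell RNA. CTRL cells received the nontarget gRNA NC1 in both positions. GFP-, hnRNPC-, and ADAR-targeted cells received 1 targeting gRNA beside NC1, ADAR+hnRNPC-targeted cells received both, and each of these 5 kinds of cells gave a group on day 3, on day 4, and on day 5 after nucleofection. CTRL cells with IFN-α formed 1 group, harvested on day 4, and the paper states that IFN-α was added on day 3. A second study used a WT clone with 9 groups of 2 libraries of total, cytosolic, or nuclear RNA and had no IFN-α group. Each study rests on 1 clone, and targeted cells were pools, so that a targeted group can hold cells with intact alleles. The study's figure legends describe the replicates as independent experiments, while the labels give a number only, and p-values measure the spread between these libraries.

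Adenosine deaminases acting on RNA convert adenosine to inosine in double-stranded RNA, and inosine is read as guanosine by reverse transcriptase. ADAR is the main editor of repeat-derived duplexes in human cells, and its longer isoform is transcribed from an IFN-inducible promoter. ADARB1 is a second catalytically active member of the family. HNRNPC binds uridine-rich RNA and keeps antisense Alu sequence out of spliced transcripts. Editing of duplexes is known to weaken their recognition by the dsRNA sensors MDA5 and PKR.

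Sequences around the sites are shown to make plain what kind of RNA was edited. Among the 73 chosen sites with at least 100 reads in both groups, sites among those with the largest differences (at most 2 per gene) follow, as 21 bases of the GRCh37 reference on the transcript strand with the edited adenosine in capitals.
ZDHHC20 (1), 3′UTR, chr13:21948615-21948635, minus strand: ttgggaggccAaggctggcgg
ZDHHC20 (2), 3′UTR, chr13:21948614-21948634, minus strand: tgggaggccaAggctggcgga
SOAT1 (1), 3′UTR, chr1:179326304-179326324, plus strand: aactggacatAaatgtttcaa
SOAT1 (2), 3′UTR, chr1:179326868-179326888, plus strand: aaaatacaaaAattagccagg
TMEM192, 3′UTR, chr4:165996279-165996299, minus strand: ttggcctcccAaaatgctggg
TNFAIP8L1, 3′UTR, chr19:4654591-4654611, plus strand: cgacctacctAcctcggcctc
NUP155 (1), 3′UTR, chr5:37290544-37290564, minus strand: cctgtagcccAgcctggagtg
NUP155 (2), 3′UTR, chr5:37290561-37290581, minus strand: tggagacagaAtctcaccctg
USP1, intron, chr1:62914807-62914827, plus strand: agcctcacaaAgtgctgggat
Both ZDHHC20 sites are adjacent bases and share their reads. The site eighth in this order lay on a patch sequence outside the annotated chromosomes, where reads from a near-identical copy cannot be told apart, and its sequence is not shown.

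Many of the chosen sites lay in the same short sequences. The 11 bases centered on the site were identical to those of another chosen site for 253 of the 751 sites at a sequenced base (33.7%), and 73 such windows were shared. Some of the frequent ones are shown with the edited adenosine in capitals, and the share of other low sites that share a window was not computed.
11 sites in 9 host genes: ggattAcaggc
10 sites in 7 host genes: ctgtaAtccca
9 sites in 9 host genes: cctgtAatccc
The last pair of these windows are the same stretch read 1 base apart. The window ggattAcaggc was also present at 0.569% of the other sites that were low in CTRL, against 1.46% of the chosen sites, and ctgtaAtccca at 0.664% against 1.33%. Repeat annotation was not used here, and no site was assigned to a repeat family.

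Over the 699 chosen sites without an empty value in any library, CTRL libraries of day 4 carried G in 1.0, 1.03, and 1.11% of reads. The 3 IFN-α libraries carried G in 16.9, 19.1, and 22.8% of reads. Every IFN-α library was thus far above every CTRL library, as the rule requires of the sums. In bulk RNA, fewer cells with an edited transcript and fewer edited transcripts per cell cannot be told apart. The median chosen site had 17.8% editing with IFN-α, with quartiles of 16.1 and 21.1% and a maximum of 47.6%. Only 35 sites reached 30%, and 4 reached 40%. The site with the highest value lay in an intron of CNST, at 47.4, 50, and 44.4% in the IFN-α libraries on 42 reads in total.

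Depth per site was low, and the IFN-α libraries differed. Libraries 1, 2, and 3 had a median of 16, 18, and 11 reads per chosen site and median editing of 15.9, 19.3, and 21.5%. The library with the fewest reads had the highest editing, and the same order held over all covered sites, at 5.18, 6.15, and 6.85%. Edited reads were found in all 3 IFN-α libraries at 602 sites, in 2 libraries at 160, and in 1 library at 10. The lowest IFN-α library lay above the highest CTRL library at 588 of the 772 sites (76.2%), against 9.68% of all covered sites. This contrast chose the sites, and nothing is read from that difference.

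**Figure D1:**
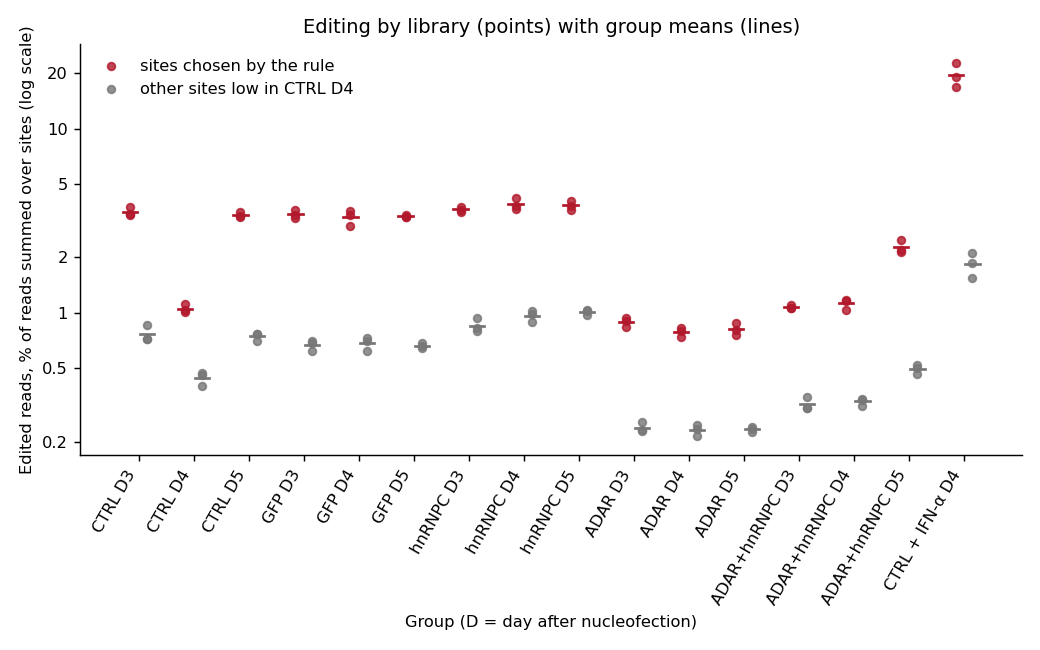
Edited reads in percent of all reads summed over sites (log scale) for each library of the 16 groups, with group means as lines. The chosen sites (red, 699 without an empty value) stood at 16.9 to 22.8% with IFN-α, at 1.0 to 1.11% in CTRL D4, and at 2.96 to 3.76% in the 15 other control libraries, and the other sites low in CTRL D4 are gray.

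The name "newly edited" held in part. In the 15 control libraries that the rule did not use (CTRL on days 3 and 5, GFP-targeted on days 3, 4, and 5), 2.96 to 3.76% of reads at the chosen sites carried G, with a median library at 3.39%. All 15 libraries were above the 3 CTRL libraries of day 4, for which the sites had been chosen to be low. At the other sites low in CTRL on day 4, the same 15 libraries had 0.624 to 0.865%, and the CTRL libraries of day 4 had 0.402 to 0.472%. Over all covered sites, CTRL on day 4 did not stand apart, at 3.12 to 3.41% against 2.99 to 3.62% in the 15 libraries.

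Site by site, with reads summed over those of the 15 libraries that had a value, 760 of the 772 chosen sites had at least 1 edited read in the 15 other control libraries, and 12 had none. Editing there was above 2% at 563 sites (72.9%), at least 5% at 197, and at least 10% at 28. The median site had 3.15% editing, with quartiles of 1.89 and 5.01%. In CTRL cells on day 4, 304 of the sites had no edited read, on a median of 48.5 reads, and 293 of these had an edited read in another control library. The site with the highest value there lay between genes on chromosome 2 at position 233249909, with 33 of 200 reads edited in the other controls (16.5%). With IFN-α it had 8 of 35, all of them in library 3.

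Relative to these other controls, editing with IFN-α was higher at all 772 sites, by as little as 0.327 percentage points. It was at least 3 times higher at 660 sites, at least 5 times higher at 466, and at least 10 times higher at 200. The 95% Wilson interval of the IFN-α value lay above that of the other controls at 626 sites. Such intervals cover counting error only, and the IFN-α values had been chosen to be high. The 209 sites at or under 2% in the other controls as well had a median of 17.1% with IFN-α and lay in 130 host genes.

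**Figure D2:**
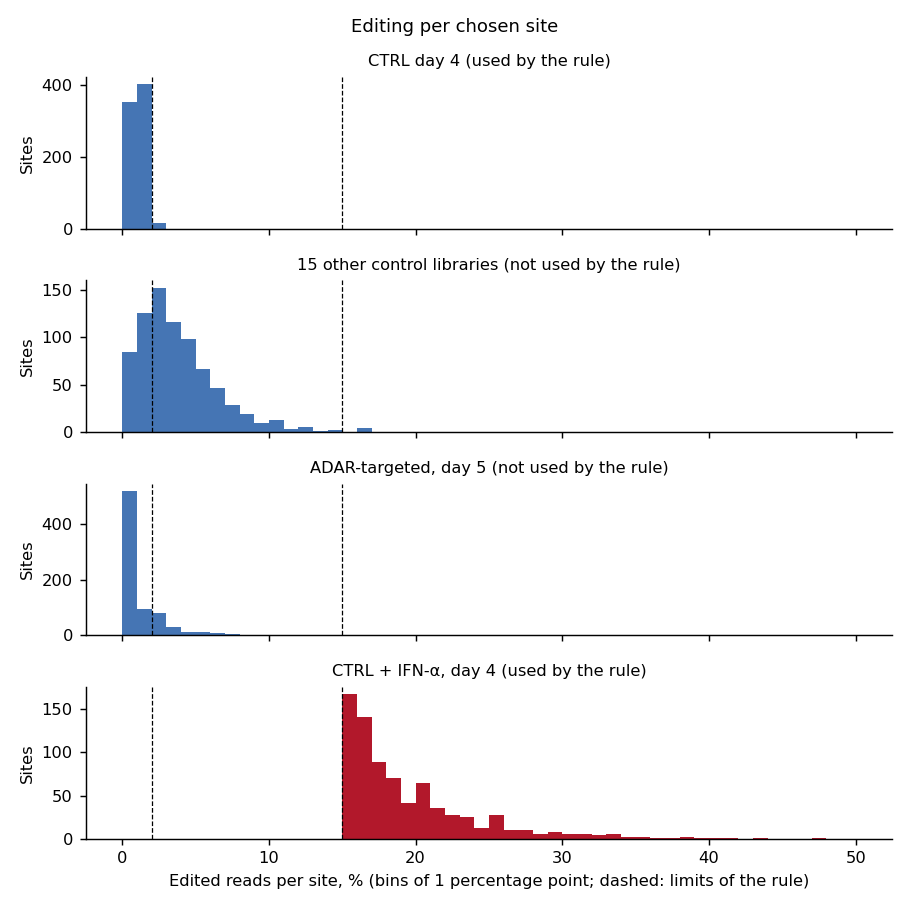
Number of chosen sites by editing (percent of reads, bins of 1 percentage point) in CTRL day 4, the 15 other control libraries, ADAR-targeted cells on day 5, and CTRL cells with IFN-α. Dashed lines mark the limits of 2 and 15%, and in the other controls 563 of the 772 sites lay above 2%.

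To read both groups in libraries that the rule had not used, the rule was applied to 2 replicates of each group and the replicate left out was read. In the 3 rounds, 640, 521, and 554 sites were chosen. Their editing in the CTRL library left out was 3.09, 3.05, and 3.44%, compared with 1.09 to 1.11% in the libraries that chose them. Their editing in the IFN-α library left out was 13.2, 14.9, and 17.9%, compared with 19.3 to 19.6%. The other low sites had 0.824 to 0.881% and 2.14 to 2.72% in the same libraries. IFN-α was thus above CTRL in each round, on values that were closer to each other than those of the rule. The library left out could still have brought a site into the table, because it was edited there. This reading is therefore not fully independent of the choice of sites.

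Which sites were chosen depended on the control group. With CTRL on day 3 or 5 or GFP-targeted cells on day 3, 4, or 5 in place of CTRL on day 4, the rule gave 818, 758, 849, 843, and 878 sites. Each of these lists shared 246 to 263 sites with the 772, which was 31.9 to 34.1% of the 772 and 29.2 to 34.7% of the other list. These lists share the IFN-α libraries, their baselines were chosen after the data were seen, and the counts are a description. With the 15 other control libraries together as the baseline, 375 sites met the rule and 200 of them were among the 772.

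With each other group in place of IFN-α, few sites met the rule against CTRL on day 4. CTRL and GFP-targeted cells gave 47 to 62 sites, 0.0309 to 0.0419% of the low sites with the reads, against 0.586% with IFN-α. hnRNPC-targeted cells gave 110, 143, and 211 sites on days 3, 4, and 5 (0.0625, 0.0899, and 0.136%). ADAR-targeted cells gave 6, 1, and 4 sites (0.00355, 0.000631, and 0.00263%). ADAR+hnRNPC-targeted cells gave 11, 10, and 39 (0.00686, 0.00646, and 0.0293%). In the opposite direction, 17 of the 11576 sites at 15% or more in CTRL on day 4 (0.147%) were at 2% or less with IFN-α. In the other control groups, 50 to 63 such sites were at 2% or less (0.340 to 0.479%).

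Summed over sites, editing was higher with IFN-α over the whole range of CTRL values, and the chosen sites are 1 end of that range. Sites from 2 to 5% in CTRL went from 3.18 to 6.72% when reads were summed, those from 10 to 20% went from 14.1 to 24.6%, and those above 40% went from 53.9 to 63.2%. The ratio fell from 2.11 to 1.74 and 1.17 over these bins. The bins were made from the same CTRL values, whose counting error raises the ratio in low bins and lowers it in high bins. All 131683 sites at 2% or less went from 0.501 to 2.12%, including the chosen sites. Of these, 43.4% were above their CTRL value with IFN-α, and the rest include sites without an edited read in both groups. Among the other low sites, 72.7% had no edited read in CTRL on day 4 and 55.9% had none with IFN-α. The share of sites above their CTRL value was 55.9% from 2 to 5%, 72.6% from 10 to 20%, and 71.5% above 40%. These values belong to the contrast that the rule used and were not tested.

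In ADAR-targeted cells, which the rule did not use, the chosen sites were at 0.744 to 0.943% in the 9 libraries of days 3 to 5. In the same days, CTRL, GFP-, and hnRNPC-targeted libraries other than CTRL on day 4 had 2.96 to 4.23%, so that these sets of libraries did not overlap. Only libraries with functional ADAR could bring a site into the table, which favors lower values in ADAR-targeted cells by construction. The median chosen site had 0 edited reads in ADAR-targeted cells on each day, and 432 of the 708 sites with 30 reads had none on day 5. In ADAR+hnRNPC-targeted cells, editing was 1.07 to 1.10% on day 3, 1.04 to 1.17% on day 4, and 2.13 to 2.48% on day 5. The libraries of day 5 were above those of days 3 and 4 and below all CTRL libraries of day 5 (3.32 to 3.53%). hnRNPC-targeted cells had 3.61 to 4.08% on day 5, above the CTRL libraries of that day. All covered sites differed between these groups in the same order, with 1.24 to 1.47% in ADAR-targeted libraries, 1.49 to 1.73% on days 3 and 4 and 2.10 to 2.24% on day 5 in ADAR+hnRNPC-targeted libraries, 3.12 to 3.41% in CTRL on day 5, and 3.52 to 3.84% in hnRNPC-targeted cells of that day. No test was made of these sums.

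Single sites were tested between groups that the rule did not use, with a quasi-binomial logistic model and Benjamini-Hochberg adjustment over all sites with at least 10 reads in each library compared. In ADAR-targeted cells against CTRL on day 5, 15 of 488 chosen sites tested were lower (6.46% of all sites tested) and 0 were higher (0.00209% of all). The unadjusted p was under 0.05 at 105 sites, all of them lower, and the value was below that of CTRL at 434 of the 488. Fisher's exact test on summed reads called 14 sites lower and limma on log2 odds called 26 lower, and neither called a site higher. The share of chosen sites called, 3.07%, was under the share of all sites, which include sites of all levels, and above the 0.525% of the other low sites. Leaving out any 1 library left 1 to 10 chosen sites called, and without any CTRL library it was 1. The direction of these calls is favored by the site table, which holds positions edited in libraries with functional ADAR. The same holds for ADAR+hnRNPC-targeted cells against CTRL.

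In ADAR+hnRNPC-targeted cells against CTRL on day 5, 3 of 454 chosen sites were lower (2.08% of all sites tested) and 0 were higher (0.0673% of all). At an unadjusted p under 0.05, 37 sites were lower and 9 higher, and Fisher's exact test and limma each called 1 site lower and 0 higher. In ADAR+hnRNPC- against ADAR-targeted cells, 6 of 361 were higher (1.71% of all sites tested) and 0 were lower (0.0177% of all). At an unadjusted p under 0.05, 51 were higher and 0 lower, Fisher's exact test called 4 higher, limma called 11 higher, and neither called a site lower. These comparisons share the ADAR+hnRNPC-targeted libraries, and leaving out any 1 library left 0 to 1 call in each.

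In hnRNPC-targeted cells against CTRL on day 5, 0 of 457 chosen sites were called by the quasi-binomial model (0.191% of all sites in either direction), with 21 higher and 15 lower at an unadjusted p under 0.05. In GFP-targeted cells, 0 of 452 were called (0.00456% of all), with 15 higher and 19 lower at that p. Between CTRL on days 5 and 3, 0 of 485 were called (0.00192% of all), with 11 higher and 12 lower. Fisher's exact test and limma called 0 chosen sites in these 3 comparisons. The interaction of ADAR and hnRNPC targeting on day 5 was called at 0 of 354 chosen sites (0.175% of all), with 39 positive and 2 negative values at an unadjusted p under 0.05 and 0 calls by limma.

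The sites that were called are named because they passed these tests, after their values were seen. One of the deepest lay in the 3′UTR of CTSS, which encodes the lysosomal protease cathepsin S. At position 150704544 of chromosome 1, editing was 2.15, 1.05, and 1.88% in CTRL on day 5 and 0% in the 3 ADAR-targeted libraries, a fall of 1.67 percentage points. The quasi-binomial model gave an adjusted p of 0.00462. In ADAR+hnRNPC-targeted cells, the values were 1.46, 0.779, and 1.22%, above ADAR-targeted cells with an adjusted p of 0.0231. All 3 chosen sites in CTSS were read in depth, with 136 of 854, 181 of 987, and 171 of 1020 reads edited with IFN-α. These are 15.9, 18.3, and 16.8%, against 1.53, 1.53, and 1.66% on 4249 to 5302 reads of the other control libraries, of which those with an empty value at a site did not enter.

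An exon of OIP5-AS1, a long noncoding RNA, held the site with the most reads in CTRL. At position 41590978 of chromosome 15, 43 of 2343 reads were edited in CTRL on day 4 and 255 of 1654 with IFN-α. The other controls had 158 of 8396 reads (1.88%), so that this site was as low there as in CTRL on day 4. ADAR-targeted libraries of day 5 had 0.151, 0.331, and 0.314%, below CTRL at 1.79, 1.65, and 2.43%, with an adjusted p of 0.00135 in the quasi-binomial model.

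ZDHHC20 encodes a palmitoyltransferase, and its site at position 21948625 of chromosome 13 was 0% in the 3 ADAR-targeted libraries of day 5. CTRL had 3.85, 3.70, and 3.03% (adjusted p = 0.0155 in the quasi-binomial model), and ADAR+hnRNPC-targeted cells had 4.21, 2.20, and 3.92% (adjusted p = 0.0201 against ADAR-targeted cells). The other sites lower in ADAR-targeted cells lay in CYP20A1, RRP36, SBF2-AS1, GNB4, GOLGA8O, THOC5, and ENSG00000267059, at a further ZDHHC20 position, and at 3 positions between genes. GOLGA8O belongs to a family of near-identical copies, and its reads are uncertain. AHR, which encodes the aryl hydrocarbon receptor, ZNF562, and a position between genes on chromosome 2 held the 3 sites lower in ADAR+hnRNPC-targeted cells. The differences were -9.29, -5.34, and -7.0 percentage points, with adjusted p of 0.0456, 0.0215, and 0.0348 in the quasi-binomial model.

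The sites with the largest differences and at least 100 reads were led by ZDHHC20 (1). In CTRL on day 4, 0 of 116, 4 of 118, and 1 of 133 reads were edited, and with IFN-α 58 of 155, 58 of 148, and 46 of 108. The sums were 1.36% (95% Wilson interval 0.583 to 3.15) and 39.4% (34.8 to 44.2), and the other controls had 2.30% on 1389 reads. ZDHHC20 (2), the adjacent base, had 0.817% in CTRL, 29.2% with IFN-α, and 1.58% in the other controls. All IFN-α libraries of both sites were above 26%, and the ADAR-targeted libraries of day 5 summed to 0% at both.

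SOAT1 encodes an enzyme that esterifies cholesterol. SOAT1 (2) had 0 of 241 reads edited in CTRL on day 4, which allows a share of up to 1.24%, and 22.4, 20.4, and 34.5% with IFN-α. It had 18 edited reads of 789 in the other controls (2.28%), so that it was not free of editing there. SOAT1 (1) had 26.3, 28.3, and 34.8% with IFN-α and 2.11% in the other controls. The log2 fold change of the host RNA with IFN-α was 0.16 for SOAT1 and 0.07 for ZDHHC20.

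NUP155 encodes a nuclear pore protein and held 2 of these sites. NUP155 (1) had 23.1, 28.0, and 21.6% with IFN-α and 1.12% in the other controls on 1164 reads, below its value in CTRL on day 4 (1.97%). NUP155 (2) had 24.4, 21.8, and 21.5%, the narrowest spread among these sites, and 2.49% in the other controls. USP1, which encodes a deubiquitinase, had 18.6, 15.6, and 37.9% in its intron. Its spread between libraries was wide on 29 to 45 reads each.

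Further sites of this group lay in the 3′UTRs of TMEM192 and TNFAIP8L1 and on the patch sequence. They had 24.8, 24.8, and 23.3% with IFN-α and 3.29, 3.54, and 0.311% in the other controls. The ADAR-targeted value on day 5 was lower than that of the other controls at all of the named sites except NUP155 (1) and the patch sequence, where it was 1.17 and 0.637%.

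**Figure D3:**
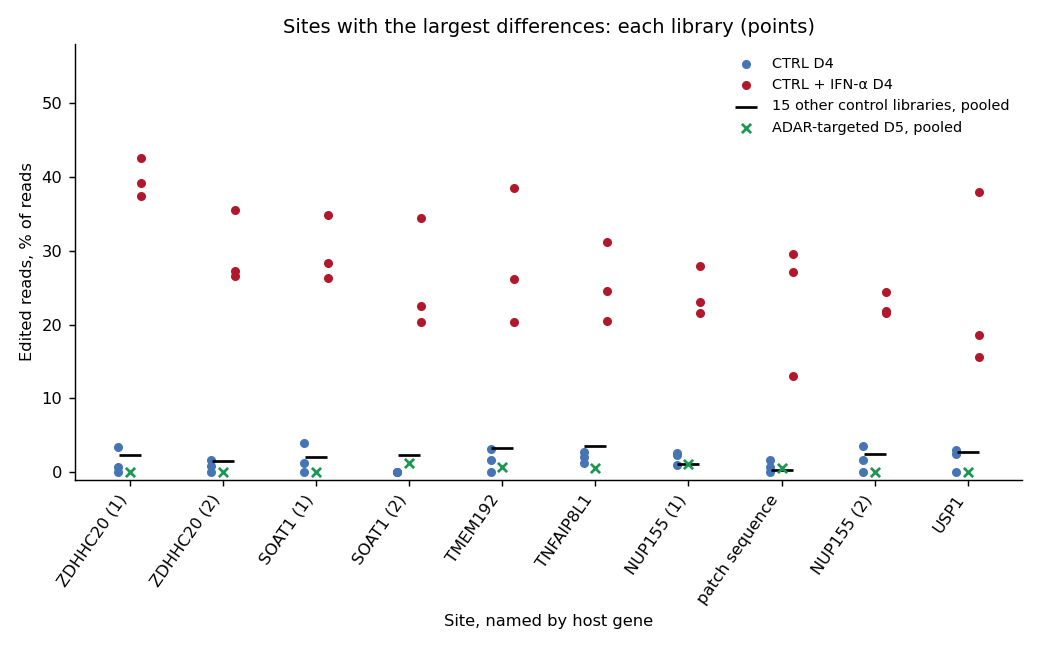
Edited reads in percent of all reads at 10 of the sites with the largest differences, as points for each CTRL D4 and IFN-α library, black lines for the 15 other control libraries pooled, and crosses for ADAR-targeted cells on day 5. All IFN-α points lie above the CTRL points, from 13% on the patch sequence to 42.6% in ZDHHC20, and the other controls lie at 0.311 to 3.54%.

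At the limits of the rule, members and nonmembers differed by single reads. TOP3A, DNAJC11, and GNL3L sites stood just inside the IFN-α limit with 9 of 60 reads each (15%). A TADA2A site with 38 of 254 reads (14.96%) and 2 sites with 10 of 67 reads (14.9%) stood just outside, in ENSG00000288632 and on an unplaced sequence. At the CTRL limit, sites in SIK2, in ENSG00000257654, and on an unplaced sequence were just inside with 2 of 100, 1 of 50, and 1 of 50 reads. Sites in CLPB (5 of 249), H6PD (6 of 298), and ATXN3 (3 of 149) were just outside, and they had 21.4, 15.8, and 30.3% with IFN-α.

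The 3′UTR of a gene was the most frequent place of the chosen sites (331, 42.9%), followed by introns (239, 31.0%) and intergenic sequence (120, 15.5%). Other exons held 47 sites, sequences outside the annotation held 31, and coding sequence and 5′UTRs held 2 each. Of the other sites low in CTRL, 22.8% lay in 3′UTRs, 45.6% in introns, 12.5% in intergenic sequence, and 2.54% in coding sequence. These shares are a description of lists that differ in reads per site. Of the 120 intergenic sites, 93 (77.5%) lay within 5000 bases after the end of a gene on the same strand, against 60.05% of the other low intergenic sites.

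With IFN-α, which chose the sites at 15% or more, editing was 19.2% in 3′UTRs, 18.8% in introns, 19.4% between genes, and 20.6% in other exons. On day 5, in CTRL and after targeting of ADAR, of hnRNPC, or of both, groups that the rule did not use, sites in introns were higher than those in 3′UTRs, without overlap of the libraries. In CTRL on day 5 the values were 3.20, 3.79, 3.53, and 3.73%, and in ADAR-targeted cells of that day 0.680, 1.02, 0.908, and 0.932%. The libraries of CTRL were at 3.07 to 3.29% in 3′UTRs and 3.42 to 4.00% in introns, and those of ADAR-targeted cells at 0.583 to 0.769% and 0.799 to 1.15%. hnRNPC-targeted libraries of day 5 were at 3.37 to 3.69% in 3′UTRs and 4.42 to 4.72% in introns, above CTRL in both places. No test was made of these sums, and they were not computed by place for the other low sites. Editing of chosen sites in the other controls also differed by reads. It was 3.93, 3.24, and 2.67% at sites with 30 to 49, 50 to 99, and 100 or more reads with IFN-α. Whether reads per site account for the difference between places was not tested.

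Coding sites are shown because a change of base there can change the protein. The site in TCEANC2 (chr1:54570440-54570460, plus strand) and that in NMRAL1 (chr16:4519668-4519688, minus strand) have these sequences.
TCEANC2: tctggcctcaAgcagtccacc
NMRAL1: caccaagccaAgatcgtgcca
The TCEANC2 site had 0 of 78 reads edited in CTRL on day 4, which allows a share of up to 3.85%, and 5 of 31 with IFN-α (16.1%, 95% Wilson interval 7.09 to 32.6). The NMRAL1 site had 4 of 12, 1 of 13, and 0 of 5 edited reads in the IFN-α libraries and 18 of 170 (10.6%) in the other controls. Its IFN-α interval of 7.34 to 33.6% includes the value of the other controls.

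The base before the edited adenosine was G at 7.19% of the 751 chosen sites at a sequenced base, at 18.7% of the other low sites, and at 3.96% of the sites at 15% or more in CTRL. ADAR is known to disfavor a 5′ guanosine and to favor uridine or adenosine there. U (T in the reference) stood before 22.8% of the chosen sites, 18.5% of the other low sites, and 38.6% of the sites edited in CTRL. C was the most frequent base before a chosen site, at 38.5%. It stood before 32.9% of the other low sites and 29.035% of the sites edited in CTRL. G stood after 36.6% of the chosen sites, 36.5% of the other low sites, and 46.3% of those edited in CTRL. In the shares of G and U before the site, the chosen sites stood between the low sites and the sites that were edited without IFN-α. Their shares of C and A before the site were above those of both other lists.

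**Figure D4:**
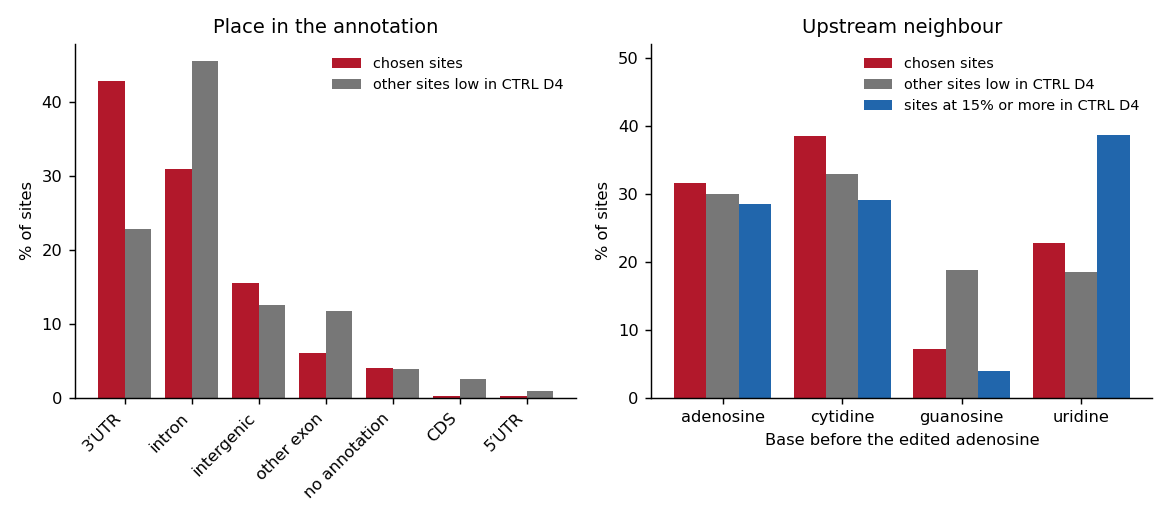
Share of sites in percent by place in the annotation (left) and by the base before the edited adenosine (right). Chosen sites (red) had 42.9% in 3′UTRs against 22.8% of the other low sites (gray), and a G before the site in 7.19% against 18.7% and against 3.96% of sites at 15% or more in CTRL (blue).

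Sequence that could pair was counted as the 12-base words within 50 bases of the site whose reverse complement lay elsewhere within 2000 bases. At least 1 such word was found at 644 of the 751 chosen sites (85.8%), at 59.7% of the other low sites, and at 82.0% of the sites at 15% or more in CTRL. The median share of words was 10.0, 3.33, and 8.89%. No structure was measured, and a reverse complement does not show that the RNA pairs.

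Chosen sites lay among other edited sites. Another covered site was found within 50 bases of 766 of the 772, with a median of 9 such sites, and this was not computed for the other low sites. A neighbor with at least 10% editing in CTRL on day 4 was present for 480 sites (62.2%), against 33.4% of the other low sites. The 6858 neighbors had 4.98% editing in CTRL on day 4 and 12.9% with IFN-α. Neighbors without empty values were at 4.37% in CTRL on day 4 and 11.7% with IFN-α. On day 5, these neighbors were at 4.50% in CTRL and 1.53% after ADAR targeting. They were at 4.69% after hnRNPC targeting and 2.87% after targeting of both. When sites on a strand less than 50 bases apart were joined, the 772 sites fell into 607 clusters. A single chosen site was found in 497 clusters, 4 clusters held 5 or more, and the most in 1 cluster was 10.

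An annotated gene hosted 621 of the sites, in 387 genes, and 125 genes had 2 or more. The 20 genes with the most chosen sites held 113 of them, and in 14 of the 20 all were in the 3′UTR. NDUFS1, which encodes a subunit of respiratory complex I, and SFT2D2, a vesicle transport protein, had 9 each. TIMM29 had 7, all in an intron, SOAT1, HOOK3, GNL3L, and TRUB2 had 6, and MDM4, HPSE, RNASEH2B, MRPS23, TMOD3, HSPA4L, CYP20A1, HELB, NT5C2, ZDHHC20, and 2 genes named only by identifier (ENSG00000267059, ENSG00000275674) had 5. Both of the latter overlap other genes, and their reads are uncertain. GNB4 had 4. Of these 20 genes, SFT2D2, GNB4, and ZDHHC20 had the largest shares of their low sites among the chosen, at 9 of 51 (17.6%), 20, and 22.7%.

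NDUFS1 (chr2:206979541-207024233, minus strand) was at 19.4, 12.5, and 28.0% in the IFN-α libraries, summed over its sites without empty values, and at 0.962, 1.52, and 1.64% in CTRL on day 4. SFT2D2 (chr1:168195176-168222259, plus strand) was at 8.27, 21.7, and 23.3% with IFN-α and at 4.05, 0, and 2.55% in CTRL on day 5. The IFN-α library 1 was lowest for SFT2D2, TIMM29, GNL3L, TRUB2, and HOOK3, among others. SOAT1 had the closest libraries, at 21.9, 22.6, and 23.0%. MDM4, whose protein restrains p53, was at 22.9% with IFN-α and already at 6.29% in CTRL on day 5, the highest of the 20 genes. Over the 20 genes, sums on day 5 were 0.773 to 6.29% in CTRL and 0 to 1.27% in ADAR-targeted cells, and they were lower in ADAR-targeted cells in all 20.

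Abundance of the host genes moved little with IFN-α. The median log2 fold change was 0.03 for the 350 host genes tested and 0.02 for all 13187 genes, and 338 of the 350 were within 0.5 in either direction. Only 2 host genes were at least 1 higher, against 1.24% of all genes, and 0 were at least 1 lower. The genes were EIF2AK2, which encodes the dsRNA-dependent kinase PKR, and HSH2D, an adaptor of hematopoietic cells. In the 20 genes with the most sites, log2 fold changes ran from -0.17 to 0.47. These values come from the contrast of the rule and have no test.

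Of the 90 genes on a list of IFN-induced genes, 24 had a covered site and 2 had a chosen site, EIF2AK2 and TRIM38. The share of all genes with a covered site that had a chosen site was not computed, so that nothing is read from such counts. On this list, the median log2 fold change with IFN-α was 2.64, against 0.02 over all genes. On a list of 26 genes for RNA editing and dsRNA binding, 9 had a covered site, 1 (EIF2AK2) had a chosen site, and the median was 0.17. EIF2AK2 was at 69.7 ± 4.62 CPM in CTRL on day 4 and 444 ± 72.0 CPM with IFN-α (mean ± SD, n = 3). Its 3 sites in the 3′UTR had 1 edited read each of 50, 81, and 57 reads in CTRL on day 4. With IFN-α they had 40 of 216, 63 of 266, and 50 of 245 (18.5, 23.7, and 20.4%). The other controls were at 6.48, 6.91, and 5.65%, so that all 3 were above 2% there. Reads at these sites were more than 3 times as many with IFN-α, while the median over chosen sites was 65 reads in CTRL and 43.5 with IFN-α. The TRIM38 site had 1 of 13, 0 of 11, and 4 of 6 reads edited with IFN-α and 16.3% in the other controls, so that it was not higher than these in every library.

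In ADAR+hnRNPC-targeted cells against CTRL on day 5, which the rule did not use, 14 of the 350 host genes were higher (9.38% of all genes tested) and 16 were lower (6.23% of all) by edgeR (fold change past 1 on the log2 scale, adjusted p not above 0.05). Both shares of host genes, 4.00 and 4.57%, were under those of all genes, and the median log2 fold change was -0.16, against -0.04 for all genes. EIF2AK2 rose by 3.06 ± 0.11 (SE), HSH2D by 3.48 ± 0.17, and TRIM38 by 1.14 ± 0.08 on the log2 scale. Of the 20 genes with the most sites, 18 were tested and 0 called. NT5C2 had the largest value at 0.94 ± 0.05. Of the IFN-induced list, 82 of 88 genes tested were higher and 0 lower, and of the list for editing and dsRNA binding, 9 of 21 were higher and 1 lower.

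ADAR mRNA was at 397 to 416 CPM in CTRL on day 4 and at 1053, 1281, and 1373 CPM with IFN-α, a log2 fold change of 1.61 without a test. ADAR+hnRNPC-targeted cells on day 5 had 1165, 1291, and 1509 CPM, above CTRL of that day (364 to 412) by 1.75 on the log2 scale with an adjusted p of 1.37e-20 by edgeR. ADAR mRNA in ADAR-targeted cells, at 349 to 396 CPM, overlapped that of control cells, and mRNA counts do not measure ADAR protein. ADARB1 was at 4.46 to 5.40 CPM in CTRL on day 4 and 5.11 to 5.28 CPM with IFN-α.

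Regions rich in editing clusters, as deposited for the first study, contained 671 of the chosen sites (86.9%), in 395 of 2875 regions. The authors built the regions from edited positions of these data, and the share of other sites inside them was not computed. The median log2 ratio of CPM between IFN-α and CTRL on day 4 was -0.12 in the 395 regions, against -0.09 over all regions. Among the 395, 3 were at least 1 higher and 0 at least 1 lower. In ADAR+hnRNPC-targeted cells against CTRL on day 5, the medians were -0.16 and -0.08. These ratios have no test.

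The site table was made by the authors from positions that passed an editing caller in at least 1 sample with functional ADAR. In the deposited counts, all 772 chosen sites had such a library with at least 10 reads and 5 to 95% editing, 732 of them outside the IFN-α group, and 40 in IFN-α libraries alone. Those 40 could enter the table only where they were high. Libraries of ADAR-targeted cells could not bring a site into the table, and control and hnRNPC-targeted libraries could. This favors lower values in ADAR-targeted cells at all sites of the table, and its extent was not tested. The stricter filter of the study, at least 10 reads and 5% in each of 3 libraries and 10% in 2 of them, was met with IFN-α by 333 sites (43.1%) and in any other group by 96.

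In the second study, 641 of the chosen sites were found without an empty value. In total RNA of CTRL cells, 7.52 and 7.08% of their reads carried G, and in cytosolic RNA 7.76 and 7.95%. The sites were thus edited in every untreated CTRL library of this WT clone, above all control libraries of the STING-deficient clone (at 699 sites). The clones, gRNAs, read lengths, and lists of sites differ between the studies, and the values were set side by side without a test. Values in the second study were present for 641 of the 772 chosen sites and 51287 of the 130911 other low sites. A site can be in that list because it was edited there, which favors high values. ADAR-targeted libraries had 1.37 and 1.13% in total and 1.19 and 1.20% in cytosolic RNA. ADAR+hnRNPC-targeted libraries had 1.36 and 1.16%, and 1.36 and 1.19%, which overlapped with ADAR-targeted libraries in both fractions. hnRNPC-targeted libraries had 8.01 and 7.68% in total, 8.41 and 7.95% in cytosolic, and 7.0 and 8.17% in nuclear RNA. The other low sites, 51287 in this study, had 2.32 and 2.13% in total RNA of CTRL cells and 0.524 and 0.465% in that of ADAR-targeted cells. In CTRL cells they too were above their 0.624 to 0.865% in the 15 other control libraries of the first study.

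**Figure D5:**
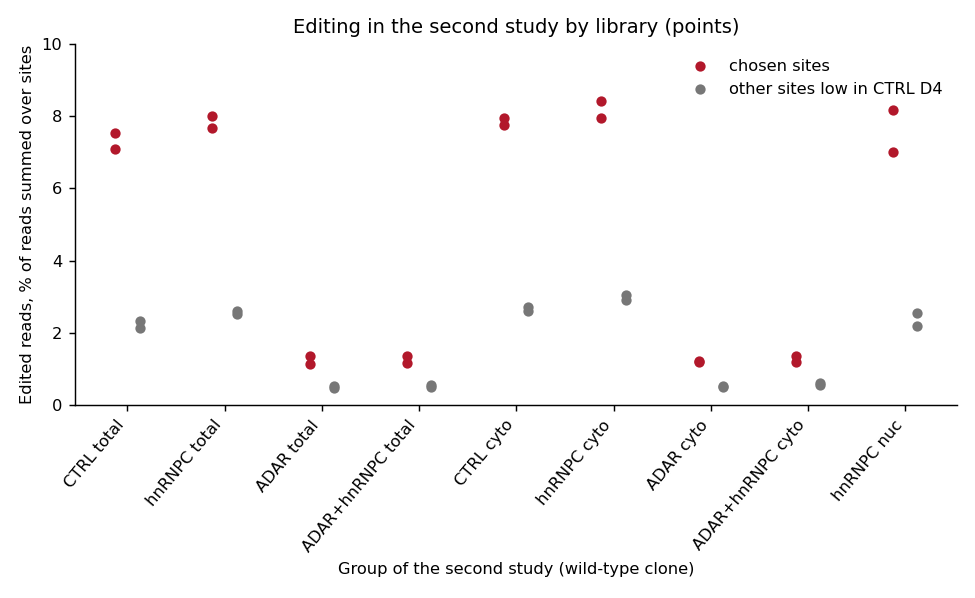
Edited reads in percent of all reads summed over sites for each library (points) of the 9 groups of the second study. The 641 chosen sites (red) stood at 7.08 to 7.95% in CTRL libraries and at 1.13 to 1.37% in ADAR-targeted libraries, and the other low sites (gray) stood below them in every group.

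Gene counts per library of the first study ranged from 95107690 to 152829008. Of 10 monocytic markers, 8 had a median of at least 1 CPM, and CD14 and CD68 were under it. Summed markers of T, epithelial, and erythroid cells were under 1 CPM in every library, and those of B cells were at 2.07 to 6.46 CPM. The summed monocytic markers were at 416 to 454 CPM in CTRL on day 4 and at 426 to 524 CPM with IFN-α.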

How the data were processed

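RNA-seq tables of THP-1 cells were used (48 libraries in 16 groups of 3, and 18 libraries in 9 groups of 2). All deposited values used here are counts. Per the labels and the study's methods, the authors aligned reads to GRCh37 with STAR 2.5.4a, with settings that admit many mismatches and multiple alignments, counted uniquely mapped reads per gene (GENCODE 19) and per editing-cluster region, and found editing sites with a caller that excluded genomic variants of the clone. They deposited counts of reads with G and of all reads per site, without normalization. The tables had 0 columns without a sample. A site with an empty value in a library was left out of each test and each sum over sites with that library, and sums for single sites used the libraries with a value (1.70% of sites in the rule's libraries).

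The chosen sites and the gene lists were selected with earlier results of these data known. Groups came from the labels. Sites were placed by a later annotation (GENCODE 44 lifted to GRCh37) in the order coding sequence, 3′UTR, 5′UTR, other exon, intron. Symbols can differ from those of the authors' annotation. The site test was a quasi-binomial logistic model with 1 coefficient per group, at least 10 reads in each library and 1 edited read. Its dispersion followed a trend with depth, was moderated with the formula of limma and held at 1 or above. The trend and the edited read were added after tests on simulated data, beyond the planned design. Genes were tested with edgeR 4.0.16 (TMM, quasi-likelihood, average log2 CPM of at least 0.5, 48 libraries in 1 model). P-values are two-sided and were adjusted by Benjamini-Hochberg over all features tested. Alternatives used limma 3.58.1 and DESeq2 1.42.0 in R 4.3.3. Libraries of a group differed by more than counting noise (smallest chi-square per gene 12.1 over 48 pairs). Wilson intervals cover counting error at 95% only, and the upper limit of a 0 was 3 counts of the total. Median depth at a chosen site was 65 reads in CTRL on day 4 and 43.5 with IFN-α.

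Named genes were the 20 with the most chosen sites. Named sites were the 12 with the largest difference at 100 or more reads in both groups and at most 2 per gene, all coding sites, and the 3 nearest to each limit on either side. Of these, 2 sites are not reported here. Other genes and sites, such as those that a test called, were named after their values were seen. Region ratios used CPM with 0.05 added. Replicate numbers did not pair the libraries at editing sites (correlations of same-numbered deviations from -0.01 to 0.02). For genes they lay between 0.07 and 0.28 for ADAR+hnRNPC-targeted cells and CTRL on day 5. With CTRL on day 5 they were 0.33 to 0.41 for hnRNPC-, 0.32 to 0.52 for ADAR-, and 0.26 to 0.48 for GFP-targeted cells. For ADAR+hnRNPC- and ADAR-targeted cells they were 0.12 to 0.16, and for CTRL on days 5 and 3 they ran from -0.17 to 0.27.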

Additional observations from a re-analysis of the deposited data

How the results depend on the processing

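The number of chosen sites followed the limits, which is their construction. It was 1656, 286, and 73 with at least 20, 50, and 100 reads, 357 and 2904 with CTRL at most 1 and 5%, and 2770 and 264 with IFN-α at least 10 and 20%. With the mean of the library fractions it was 1149, and with empty values set to 0 it was 788. Leaving out 1 library of either group gave 432 to 799 sites. The lowest counts came without IFN-α library 2 (432) and library 3 (481), of which 244 and 361 were among the 772. Alternatives chosen after the data were seen were each of the 5 other control groups as the baseline (758 to 878 sites), the 15 other control libraries together (375 sites), and all 18 control libraries (344 sites, 237 among the 772).

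Calls at single sites were few and depended on the filter. ADAR-targeted cells against CTRL gave 15 chosen sites lower, 8 with a difference of at least 5 percentage points, 4 with 1 read per library, 26 with limma, 16 with at least 20 reads per library, and 1 to 10 without 1 library (1 without each CTRL library of day 5). ADAR+hnRNPC-targeted cells against CTRL gave 3, and 1 by Fisher's exact test, 1 with limma, 0 with 1 read per library, and 0 to 1 without 1 library. Against ADAR-targeted cells the 6 calls became 1 with a difference of at least 5 points, 13 with 20 reads, 1 with 1 read, 11 with limma, and 0 to 1 without 1 library. The interaction went from 0 to 1 with 20 reads per library. The other comparisons of sites stayed at 0 chosen sites under all 12 alternatives each, leave-one-out included (0 to 0). Host genes called were 30, from 28 (limma-voom) to 34 (without CTRL replicate 1 or ADAR+hnRNPC replicate 1), and 29 to 34 without 1 library. With the replicate number as a block, calls at chosen sites were 3, 0, 15, 0, 8, 0, and 0 in the order ADAR+hnRNPC, hnRNPC, ADAR, and GFP against CTRL, ADAR+hnRNPC against ADAR, CTRL day 5 against day 3, and the interaction, and host genes called were 29. Same-numbered libraries deviated together at genes in some comparisons and not at editing sites, and no such count moved by over 1.5 times. The cause of these changes was not tested. With 10 reads required in each library compared, 354 to 488 of the 772 sites could be tested.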
